A study of Homo sapiens with 2 samples.

Results

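The genes described here are those of the amino acid response, of serine and one-carbon synthesis and of tRNA charging, measured in A549, an established cell line from a human lung adenocarcinoma. The members were chosen by name, with earlier results of these data known. They were 13 ATF4-linked genes, 7 genes of serine and one-carbon metabolism, and 19 cytosolic and 16 mitochondrial aminoacyl-tRNA synthetases. The tRNA exporter XPOT and the synthetase scaffold genes AIMP1 and AIMP2 were also listed. Of these 58 genes, 32 were named on the array, among 14884 named genes in all. The other 26 are unnamed here, and all 16 mitochondrial synthetases are among them, so the planned comparison of cytosolic with mitochondrial synthetase signals could not be made. A549 cells were held for 4 h either in static culture or under mechanical stretch, with no other treatment or genotype difference in the labels. Each condition was represented by 1 Affymetrix array, so values have no replicates and no test between the conditions could be run. The labels do not state how strongly, how often or on which device cells were stretched, nor how many cultures each RNA came from. The title of the stretched sample spells the line A594, while its source name gives A549.

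When amino acids run short or unfolded protein accumulates in the endoplasmic reticulum, kinases phosphorylate the translation initiation factor eIF2. Bulk translation then slows while translation of the transcription factor ATF4 increases. ATF4 binds C/EBP-ATF response elements together with C/EBP proteins and induces genes of amino acid uptake and synthesis, of feedback control and of tRNA charging. Aminoacyl-tRNA synthetases attach each amino acid to its tRNA, and separate nuclear genes encode most of the cytosolic and mitochondrial enzymes. Serine synthesis draws on a glycolytic intermediate and feeds the folate cycle with one-carbon units, a route used heavily by many lung tumour lines.

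The letters of the C/EBP-ATF element were searched in the promoter windows of the members, since it is the sequence through which ATF4 is known to act. The motif was TGATGNAA on either strand, in RefSeq windows of GRCh38.p14 that run from 250 bases before to 50 bases after each annotated transcript start. A gene was counted when any of its windows held the letters, and no other motif was searched, apart from the subset TGATGCAA. Of 27305 genes in the table, 4.46% held TGATGNAA, and of the named genes past the level filter with a window 2.65% did. Among the cytosolic synthetases, 7 of the 16 with a window held it, against 1 of 14 mitochondrial synthetases. The ATF4-linked genes held it in 4 of 12, the serine and one-carbon genes in 0 of 4, and the exporter and scaffold genes in 0 of 3. The ATF4-linked genes were listed for their known tie to ATF4, so their share is not independent of the element. The synthetases were listed by enzyme family. Since ATF4 is known to induce genes of tRNA charging, their share is not fully independent of it either. A match of letters is a description and not evidence of binding.

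Whole upstream windows are shown for ASNS, the textbook case of amino acid control, and AARS1, whose match lies farthest from the start among the synthetases named on the array. Both are on the minus strand, are printed in the direction of transcription and end at the last base before the start, with the matched letters in capitals. The ASNS window is chr7:97872409-97872658 and its match begins 68 bases before the start. The AARS1 window is chr16:70289507-70289756 and its match, on the opposite strand, begins 187 bases before the start.
ASNS: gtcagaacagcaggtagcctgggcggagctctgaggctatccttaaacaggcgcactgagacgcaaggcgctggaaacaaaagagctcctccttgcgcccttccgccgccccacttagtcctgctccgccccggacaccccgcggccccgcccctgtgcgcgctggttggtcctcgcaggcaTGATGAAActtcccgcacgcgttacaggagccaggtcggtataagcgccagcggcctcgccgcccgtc
AARS1: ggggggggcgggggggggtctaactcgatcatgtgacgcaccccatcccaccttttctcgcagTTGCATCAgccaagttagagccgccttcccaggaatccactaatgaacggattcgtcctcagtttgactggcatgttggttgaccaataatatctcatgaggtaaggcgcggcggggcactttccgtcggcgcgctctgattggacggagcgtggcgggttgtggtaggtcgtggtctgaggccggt

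The matches in the other members named on the array are shown with up to 10 bases on each side, in the direction of transcription, so that the shared core can be read across genes. Capitals again mark the matched letters. A match on the opposite strand reads as TTNCATCA.
ATF3: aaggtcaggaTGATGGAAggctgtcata
CARS1: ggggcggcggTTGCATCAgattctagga
GARS1: tacgcggcgaTTTCATCAtgctccgagc
IARS1: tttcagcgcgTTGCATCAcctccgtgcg
MARS1: ccggttccggTTGCATCAgcgagggatt
NARS1: ctacgctctcTGATGCAAcgccggaa
TARS1: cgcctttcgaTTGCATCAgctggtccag

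These stretches lie at chr1:212565206-212565233 (plus strand) for ATF3 and chr11:3057408-3057435 (minus) for CARS1. Those of GARS1 and IARS1 lie at chr7:30594835-30594862 (plus) and chr9:92293693-92293720 (minus). The stretches of MARS1, NARS1 and TARS1 lie at chr12:57488054-57488081 (plus), chr18:57621807-57621832 (minus) and chr5:33440957-33440984 (plus). In 6 of the 7 synthetases the match was TGATGCAA or its reverse complement TTGCATCA, letters held by 1.08% of all genes in the table. GARS1 was the exception, with TTTCATCA. The synthetase matches clustered at the start: they began 33 bases before it in GARS1, 13 in IARS1, 4 in MARS1 and 2 in CARS1, and at transcript base 3 in TARS1 and 15 in NARS1. In all windows of the table, 23.4% of 1306 matches began within 40 bases of the start, against 6 of the 7 in these synthetases, a range chosen after the positions were seen. ATF3, CARS1, GARS1 and TARS1 each also had a window at another start that held no match, as did ASNS. Among members unnamed on the array, CEBPG, CHAC1 and the mitochondrial synthetase gene YARS2 held the letters.

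The array values are log2 RMA signals, a summary in which each unit is a doubling, and the difference between arrays is always stretch minus static. A level filter kept the 10981 genes with at least 1 value at or above 2.52, which is the median over both arrays, and all 32 named members passed it, by their mean value too. To gauge background, 13 named genes typical of other tissues were used, with signals from 1.31 to 4.45. Their 95th percentile, 4.19, is used as the background bound, below which a signal cannot be told from background and a difference may be compressed. Over the 10981 genes the median difference was 0.20, with quartiles at -0.17 and 0.65, and how the arrays were scaled to each other is unknown. Differences are therefore read against that shift. Of 9 listed markers of the line 5 were named. KRT18 stood at 10.29 static and 11.00 stretched, KRT7 at 5.41 and 7.56, KRT8 at 4.60 and 5.47 and EPCAM at 5.30 and 4.71, while KRT19 lay within background on both arrays (3.77 and 3.78). The fibroblast genes DCN and LUM, the endothelial genes PECAM1, VWF and KDR and the leukocyte gene LYZ lay within background on both arrays. CD68, a lysosomal protein used as a macrophage marker, stood at 7.51 and 8.58. Its part in the results was not tested. In such cultures a change in RNA per cell and a change in the make-up of the culture cannot be told apart.

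Most of the named members were higher on the stretched array and none was lower by the same fold. In 25 of 32 members the stretched signal was 1.5-fold or more above the static one, in 0 it was that far below, and 7 lay between. The same held for 27.7% (higher) and 8.9% (lower) of all filtered genes. At 2-fold, 17 members were higher and 0 lower, against 12.3% and 2.5% of all genes. The median difference of the members was 1.04. The list was chosen with earlier results of these data known, so its excess over all genes may not be independent of them. Genes past the upper quartile of all values, 4.24, leaned higher on this array pair: among these 6612 genes the median difference was 0.41. Of those, 38.9% were higher by 1.5-fold and 18.3% by 2-fold or more, against 5.64% and 2.39% lower. AIMP1 (-0.13) and DDIT3 (-0.06) were the members with differences under 0.

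**Figure D1:**
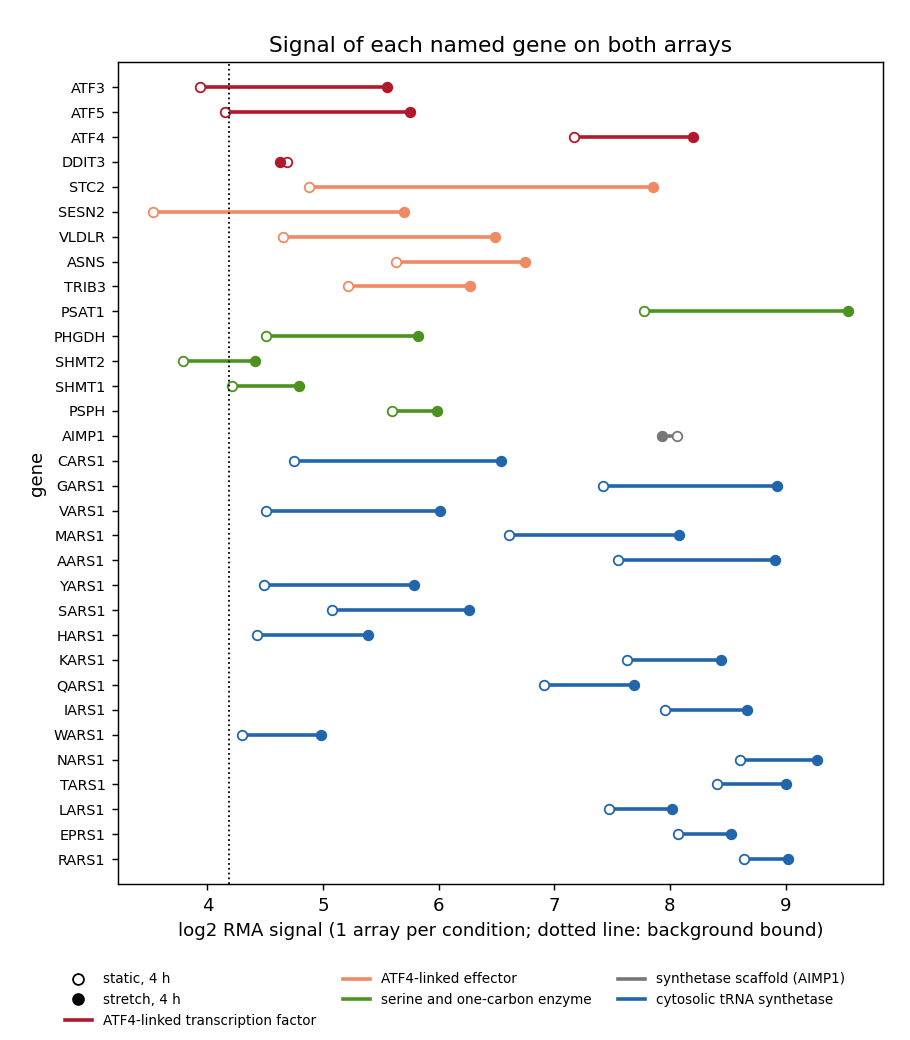
The log2 RMA signal of each of the 32 named members on the static array (open points) and the stretched array (filled points), 1 array per condition, with genes grouped by role and ordered by difference within a role. All lines run to the right except those of DDIT3 and AIMP1, and 4 static values, those of ATF3, ATF5, SESN2 and SHMT2, lie at or below the background bound of 4.19 (dotted).

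Of the 4 named ATF4-linked transcription factors, ATF4, ATF3 and ATF5 were at least 2-fold higher under stretch and DDIT3 was not. ATF4, the central activator of the response, went from a static signal of 7.17 to a stretched signal of 8.20, a difference of 1.03. It stayed at or above 2-fold after centring on the array medians but not after quantile normalization (0.75) or loess (0.72), and with reference genes (0.57) it was under 1.5-fold. ATF3, a stress-induced leucine zipper factor, went from 3.94 to 5.55, a difference of 1.61. ATF5, a relative of ATF4 whose translation is controlled in a similar way, went from 4.15 to 5.75, a difference of 1.60. The stretched signals of ATF3 and ATF5 stood above the background bound and their static signals below it. Both differences may thus be compressed. DDIT3 encodes CHOP, the factor linked to cell death under prolonged stress. Its signal was 4.69 static and 4.63 stretched, a difference of -0.06, close above the background bound on both arrays. It stood at rank 7439 of 10981 genes in order of difference from the highest, against rank 1241 for ATF4. The partner factors CEBPB and CEBPG and the stress factor NUPR1 are unnamed here.

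All 5 named effectors downstream of ATF4 were at least 2-fold higher, beside 12.3% of all filtered genes, with a median difference of 1.84. For ASNS and TRIB3 the 2-fold call was lost after quantile normalization (0.70 and 0.62), loess (0.77 and 0.69) and centring on reference genes (0.66 and 0.59), while STC2, SESN2 and VLDLR kept it. STC2, the secreted glycoprotein stanniocalcin 2, went from 4.88 to 7.85, a difference of 2.97 or 7.84-fold, and was 14th of the 10981 genes. SESN2, a leucine sensor that restrains mTORC1, went from 3.53, within background, to 5.70, a difference of 2.17 that may likewise be compressed. VLDLR, a lipoprotein receptor, went from 4.65 to 6.49, a difference of 1.84. These 3 genes had larger differences than the classical markers of the response. ASNS, which makes asparagine and carries the element shown above, went from 5.63 to 6.75, a difference of 1.12. TRIB3, a pseudokinase that restrains ATF4 in a feedback loop, went from 5.22 to 6.27, a difference of 1.05. The promoter windows of STC2, SESN2, VLDLR and TRIB3 did not hold the letters. CHAC1, an enzyme that degrades glutathione, is unnamed here. Over both kinds of ATF4-linked gene, 8 of 9 were at least 1.5-fold higher, beside 27.7% of all filtered genes, and the median difference was 1.60. All 9 also passed the upper quartile, where 38.9% of genes were 1.5-fold and 18.3% were 2-fold higher.

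Serine synthesis was uneven along its pathway. PHGDH, which commits the glycolytic intermediate to serine, went from 4.51 to 5.82, a difference of 1.31. PSAT1, the aminotransferase of the next step, went from 7.78 to 9.54, a difference of 1.76 and rank 222. PSPH, the phosphatase that releases serine, went from 5.60 to 5.99, a difference of 0.39, and it has a close pseudogene copy whose signal may not be separable. As deposited, the first steps were thus at least 2-fold higher and the last was under 1.5-fold. PHGDH fell under 2-fold after quantile normalization (0.91), loess (0.97) and centring on reference genes (0.85), while PSAT1 stayed past it. The serine hydroxymethyltransferases, which pass a carbon of serine to folate, lay near background. SHMT1, the cytosolic form, went from 4.21 to 4.79, a difference of 0.58, just under 1.5-fold. SHMT2, the mitochondrial form, went from 3.79, within background, to 4.41, a difference of 0.62, just over it. Of these 5 genes, 3 were at least 1.5-fold higher, beside 27.7% of all filtered genes, and the median was 0.62. All 5 also passed the upper quartile, where 38.9% of genes were that far higher and the median was 0.41. The count of 3 was 2 after quantile normalization, after loess and with arrays centred on reference genes. MTHFD2 and ALDH1L2, folate enzymes of mitochondria, are unnamed here.

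All 17 named cytosolic synthetases had a difference above the all-gene median, from 0.38 to 1.79, with a median of 0.81. A difference of 1.5-fold or more was seen upward in 14 and downward in 0, beside 27.7% and 8.9% of all filtered genes. Upward, 7 reached 2-fold, beside 12.3%. All 17 also passed the upper quartile, where 38.9% of genes were 1.5-fold and 18.3% were 2-fold higher. Every static signal lay above the background bound, between 4.30 and 8.64. Those of WARS1 (4.30) and HARS1 (4.43) were still under 4.45, the highest value of a background gene. Those of YARS1 (4.49) and VARS1 (4.51) were just over it. CARS1, which charges cysteine tRNA, went from 4.75 to 6.54, a difference of 1.79. GARS1, the glycyl enzyme of cytosol and mitochondria, went from 7.42 to 8.93, a difference of 1.51. MARS1, the methionyl enzyme that serves initiation as well as elongation, went from 6.61 to 8.08, a difference of 1.47. AARS1, the alanyl enzyme, went from 7.55 to 8.91, a difference of 1.36. All 4 carry the element letters shown above. YARS1, the tyrosyl enzyme, went from 4.49 to 5.79, a difference of 1.30. SARS1, the seryl enzyme that uses the product of the serine pathway, went from 5.08 to 6.26, a difference of 1.18.

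VARS1, the valyl enzyme, had 2 probe sets that differed in size. The one that stands for the gene went from 4.51 to 6.01 (1.5) and the other from 4.85 to 5.59 (0.74), with 1.12 for their mean, so whether VARS1 reaches 2-fold depends on the probe set. WARS1, the tryptophanyl enzyme, which interferon also induces, went from 4.30 to 4.98 (0.68) on its brighter probe set. Its other probe set read 2.31 and 2.13, within background, and with both averaged the difference was 0.25. FARSA and FARSB, the subunits of the phenylalanyl enzyme, are unnamed here.

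A smaller difference was seen in the remaining synthetases. HARS1, the histidyl enzyme, went from 4.43 to 5.39 (0.96). KARS1, the lysyl enzyme of cytosol and mitochondria, went from 7.63 to 8.44 (0.81) and QARS1, the glutaminyl enzyme, from 6.91 to 7.69 (0.78). IARS1, the isoleucyl enzyme, went from 7.96 to 8.67 (0.71) and NARS1, the asparaginyl enzyme, from 8.61 to 9.27 (0.66). Both carry the letters at their start, as does TARS1, the threonyl enzyme, which went from 8.41 to 9.00 (0.59). Under 1.5-fold were LARS1, the leucyl enzyme, from 7.47 to 8.02 (0.55), the bifunctional glutamyl-prolyl enzyme EPRS1, from 8.07 to 8.53 (0.46), and the arginyl enzyme RARS1, from 8.64 to 9.02 (0.38). TARS1 (0.59) lay just inside the 1.5-fold limit and LARS1 (0.55) just outside it. With no replicate, the order of neighbours in this list has no error attached.

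Synthetases of the multi-synthetase complex, the cytosolic assembly held together by scaffold proteins, had smaller differences than those outside it. The 7 named enzymes of the complex (EPRS1, IARS1, KARS1, LARS1, MARS1, QARS1 and RARS1) had a median difference of 0.71, and 1 of them, MARS1, was at least 2-fold higher. The 10 outside it had a median of 1.24, and 6 were at least 2-fold higher. The ranges overlapped, from 0.38 to 1.47 inside and from 0.59 to 1.79 outside. AIMP1, a scaffold of the complex, read 8.06 static and 7.93 stretched, a difference of -0.13. Signal level moved with this grouping: the median of the mean signals was 8.04 inside and 5.66 outside. Over the 17 synthetases the difference ran with mean signal at a Pearson r of -0.45 and a Spearman rho of -0.50, across genes of the same arrays, which are not independent. Over all 10981 genes these were 0.23 and 0.31. Among synthetases with a static signal of at least 7 the median difference was 0.66 (9 genes), and 1.24 below it (8 genes). The part of signal level in the contrast between complex and other enzymes was not tested, and the grouping was chosen after the values were seen. By catalytic class, the 9 class I enzymes had a median of 0.78 and the 7 class II enzymes one of 0.96.

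**Figure D2:**
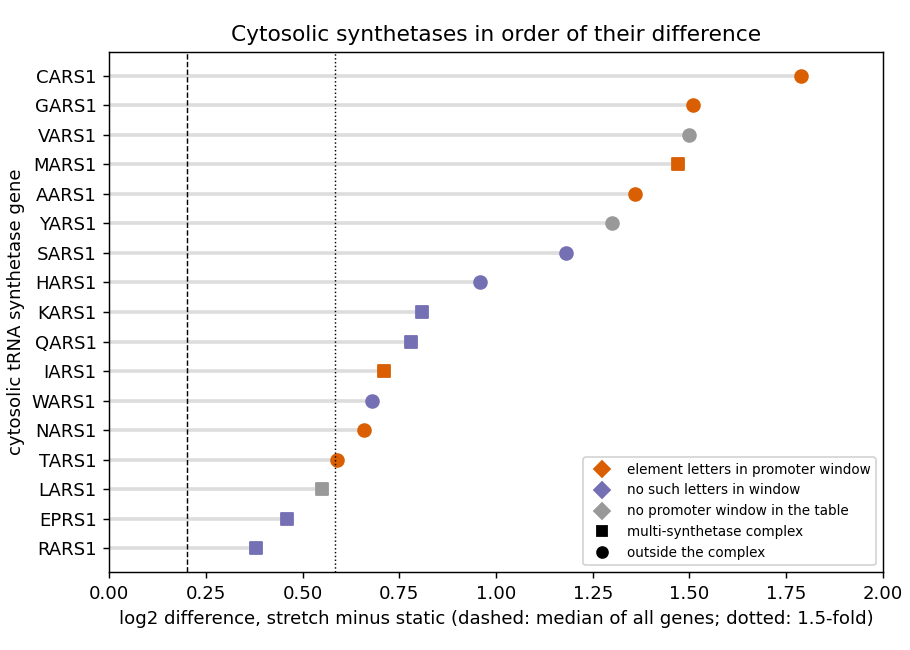
The log2 difference, stretch minus static, of each of the 17 named cytosolic synthetases in order of size, 1 array per condition, with colour for the element letters in the promoter window and shape for membership of the multi-synthetase complex. CARS1, GARS1, MARS1 and AARS1, with the letters, lie at 1.36 or above, while IARS1, NARS1 and TARS1, also with the letters, lie at 0.71 or below.

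The synthetases with the element letters held places near the top and lower in the order of differences, but not the lowest ones, EPRS1 and RARS1. For LARS1, the next lowest, it is unknown whether its promoter holds the letters. The 7 with the letters had a median difference of 1.36, from 0.59 to 1.79, and all 7 were at least 1.5-fold and 4 at least 2-fold higher. The 7 with a window but no letters had a median of 0.78, from 0.38 to 1.18, with 5 and 1 past these folds. VARS1, YARS1 and LARS1 had no window in the table. The 2 ranges overlap. Over all named genes past the level filter the letters did not go with a higher difference: the median was 0.16 in the 222 genes with them and 0.24 in the 8154 without. This split of the differences was chosen after the values were seen. It also overlaps with the grouping by complex. Of the 7 with the letters, IARS1 and MARS1 belong to the complex. Of the 7 without them, EPRS1, KARS1, QARS1 and RARS1 do. The part of each grouping in the differences was not tested.

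Since differences varied with signal level, the members were also set beside all named genes of like level. Between mean signals of 5 and 7, where 41.1% of 3161 genes were at least 1.5-fold higher and the median was 0.45, all 4 ATF4-linked genes and all 4 synthetases were at least 1.5-fold higher, with medians of 1.48 and 1.40. Between 7 and 9, where 27.2% of 1072 genes were at least 1.5-fold higher and the median was 0.29, 8 of 11 synthetases were, with a median of 0.71. In this brighter range ATF4 and PSAT1 were the other members past 1.5-fold. Between 3 and 5, 3 of 4 ATF4-linked genes were at least 1.5-fold higher, against 27.2% of 4604 genes.

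**Figure D3:**
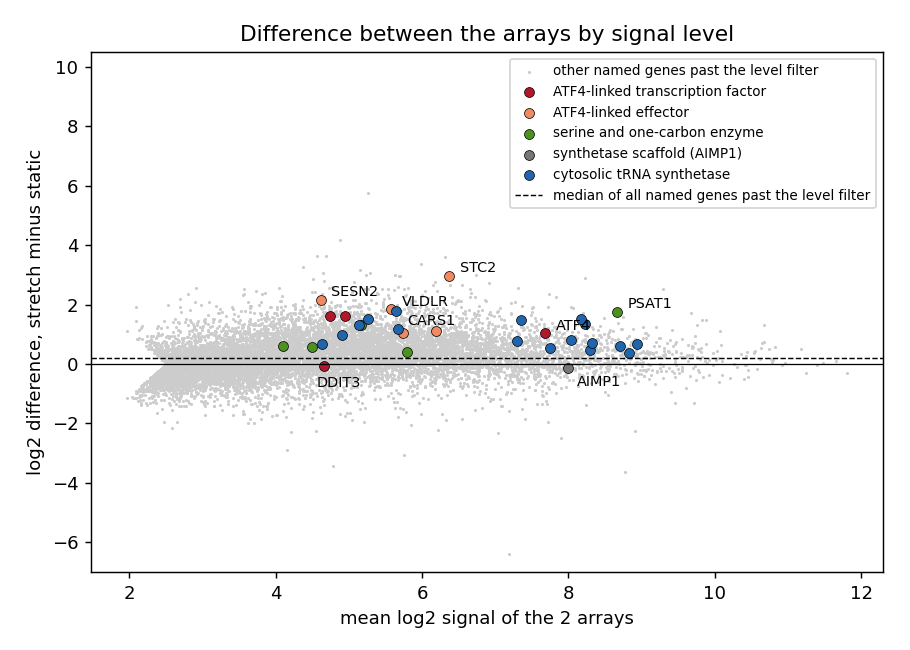
The log2 difference, stretch minus static, against the mean log2 signal of both arrays for the 10981 named genes past the level filter (grey) and the 32 members (coloured by role), with the median of all genes at 0.20 (dashed). The members lie mostly above the dashed line at each signal level, with STC2 at 2.97 the highest of them and AIMP1 at -0.13 the lowest.

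The size of the differences depended on how the arrays were scaled to each other. The order of the 3 group medians was the same as deposited, after quantile normalization and after loess. Centring on the array medians or on reference genes shifts every gene by the same amount, so it could not change that order. The 11 named reference genes differed by 0.46 on average, from -0.57 to 1.72, and centring the arrays on them brought the median of all genes to -0.26. Under that scaling the medians were 1.14 for ATF4-linked genes, 0.16 for serine and one-carbon genes and 0.35 for cytosolic synthetases. It lowers every gene by 0.46, which is less than the 1.5-fold limit, so the 25 members past that limit were bound to stay above 0. Of these 25, 16 remained past 1.5-fold. Below 0 were 5 of the 32 members: DDIT3, AIMP1, PSPH, RARS1 and EPRS1, the last at 0 after rounding. After quantile normalization, which brought the median of all genes to -0.01, 17 of the 25 remained past 1.5-fold, and after a loess on level 18 did. The count over all 10981 genes fell as well. It was 3042 as deposited, 1208 with reference genes, 1809 after quantile normalization and 2031 after loess. DDIT3 stood at -0.43 after quantile normalization and at 0.04 after centring on the array medians, so it has no settled direction.

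**Figure D4:**
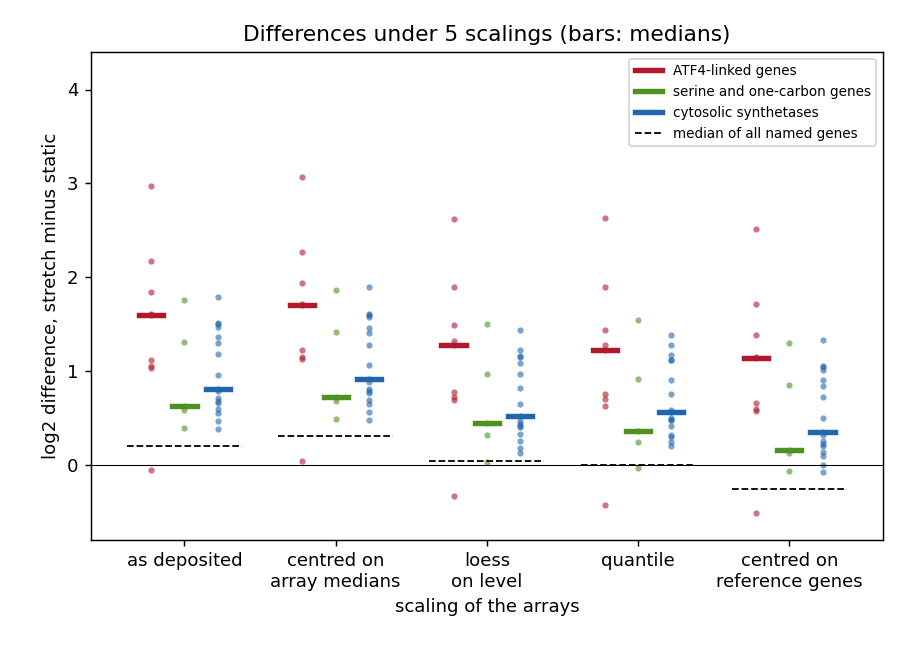
The log2 difference, stretch minus static, of each ATF4-linked gene (9), serine and one-carbon gene (5) and cytosolic synthetase (17) under 5 scalings of the 2 arrays, with bars for group medians and a dashed line for the median of all named genes past the level filter. The ATF4-linked median runs from 1.70 down to 1.14 and the synthetase median from 0.91 down to 0.35. The ATF4-linked median lies above the synthetase median under each of the 5 scalings. Both centrings shift all genes alike, so only loess and quantile normalization could have changed this order.

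Genes upstream of ATF4 were close to the background of genes past the upper quartile of all values. Of 10 listed eIF2 kinases and regulators, 6 were named, and 2 of the 6 were 1.5-fold higher or more, with 0 lower. Their median of 0.41 equals that of the genes past the upper quartile, of which 38.9% were that far higher. Over all filtered genes the median was 0.20 and the share 27.7%. GCN1, which couples stalled ribosomes to the kinase GCN2, went from 5.97 to 7.20 (1.23), and IMPACT, an inhibitor of that coupling, from 5.62 to 6.46 (0.84). The kinase genes EIF2AK1 (0.42), which responds to heme, and EIF2AK3 (0.40), which responds to unfolded protein, were under 1.5-fold. EIF2AK4, the gene of GCN2, named after its values were seen, read 5.81 and 5.89.

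Further genes linked to ATF4 were mixed. Of 21 listed, 14 were named and 13 passed the level filter, of which 6 exceeded 1.5-fold upward and 1 downward, beside 27.7% and 8.9% of all genes past that filter. Their median was 0.50. Not all of these 13 reached the upper quartile, where 38.9% of genes were 1.5-fold higher and 5.64% lower. ASS1, the argininosuccinate synthase of arginine synthesis, went from 5.25 to 7.35 (2.10). DDIT4, an inhibitor of mTORC1, went from 6.38 to 8.06 (1.68), and SQSTM1, the autophagy receptor p62, from 6.21 to 7.34 (1.13). GDF15, a stress cytokine often induced along with ATF4, went the other way, from 8.19 to 7.12 (-1.07). All 12 listed amino acid transporter genes are unnamed here.

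Among the other one-carbon genes, 11 of 17 were named, 10 passed the level filter and 6 of them exceeded 1.5-fold upward and 0 downward, beside the same 27.7% and 8.9%. Their median was 0.63. Not all of these 10 reached the upper quartile, where 38.9% of genes were 1.5-fold higher and the median was 0.41. GLDC, of the glycine cleavage system, went from 4.44 to 5.28 (0.84), PPAT, of purine synthesis, from 5.06 to 5.85 (0.79) and MTR, methionine synthase, from 6.13 to 6.90 (0.77). SFXN1, a mitochondrial serine transporter, went from 4.33 to 5.05 (0.72). These values are close to those of SHMT1 and SHMT2 and under those of PHGDH and PSAT1.

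Of 18 listed tRNA-related genes other than the member synthetases, 11 were named, of which 3 exceeded 1.5-fold upward, a share close to the 27.7% of all genes, and 0 downward. Their median was 0.31. TRMT1, a tRNA guanosine methyltransferase, went from 4.46 to 6.03 (1.57), ELAC2, which trims tRNA 3′ ends, from 6.06 to 7.38 (1.32), and XPO5, an exporter of small structured RNAs, from 6.06 to 7.08 (1.02). MTFMT, which formylates the mitochondrial initiator tRNA, went from 5.88 to 6.22 (0.34). GATB (-0.17) and QRSL1 (0.31), subunits of the enzyme that makes glutaminyl-tRNA in mitochondria, were named after their values were seen. In the other branches of the unfolded protein response, 5 of 10 listed genes were named, of which 2 exceeded 1.5-fold upward and 0 downward. Both this share and their median of 0.41 are close to those of the genes past the upper quartile (38.9% and 0.41). For all filtered genes these were 27.7% and 0.20. SEL1L, of endoplasmic reticulum degradation, went from 7.11 to 7.91 (0.80) and ERN1, the sensor IRE1, from 4.06, within background, to 4.79 (0.73). CALR, the chaperone calreticulin, stood at 0.41 and XBP1, the factor activated by ERN1, at -0.16.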

How the data were processed

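The deposited table holds log2 values of 53617 probe sets on 2 arrays, 1 per condition. They are RMA values per the submitters' processing notes. No label states the software version, the chip definition or the scaling between arrays. The array medians were 2.57 (static) and 2.47 (stretch), and sorted values differed by up to 0.45. Probe sets were named through the platform annotation: 16098 had 1 symbol, 0 several and 37519 none. All 16098 gene identifiers were found in the RefSeq table of GRCh38.p14. For each gene the probe set with the highest mean represented it. The log2 difference, stretch minus static, was computed and counted at 1.5-fold (0.585) and 2-fold. Every named member is described, and up to 4 genes per further list are named by the largest absolute difference past the level filter. Marker genes are given as far as they were named, and other genes are stated as named after their values were seen. The members and lists were chosen with earlier results of these data known. Alternatives were 4 scalings, averaged probe sets, 3 level filters, means and 2-fold. The loess used a span of 0.3. Functions were tested on simulated data. The number of arrays limits the precision. Python 3.11.15, numpy 2.4.6, pandas 2.3.3, statsmodels 0.14.6 and matplotlib 3.10.9 were used.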

Additional observations from a re-analysis of the deposited data

How the results depend on the processing

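With 1 array per condition a median was counted as moved when it changed by more than 1.5 times, as were counts. Of 54 alternatives tried for the medians and 1.5-fold counts of the 3 measured groups, 45 stayed within that and 9 did not, and none reversed. Many of the 45 could not have moved. Each of the 3 other level filters kept the same 9, 5 and 17 genes, so those values were bound to be the same. Averaging probe sets could change only VARS1 and WARS1, so it could move neither of the groups other than the synthetases. The ATF4-linked median and count stayed within it in every alternative run. The serine and one-carbon median of 0.62 was 0.36 after quantile normalization, 0.16 with arrays centred on reference genes and 0.93 as a mean. The cytosolic synthetase median of 0.81 was 0.52 after loess on level and 0.35 with reference genes. Its count of 14 was 7 after quantile normalization, 8 after loess, 7 with reference genes and 7 at 2-fold. The median difference of all filtered genes, 0.20 as deposited, was -0.26 with reference genes, -0.01 after quantile normalization and 0.04 after loess. In that order 1208, 1809 and 2031 of the 10981 genes were at least 1.5-fold higher, against 3042 as deposited. Alternatives for mitochondrial synthetases were not run because none is named here. No array could be left out. No paired analysis was possible because each group holds 1 array. Signal over background limits SESN2, ATF3, ATF5 and SHMT2, whose static values lay within background.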
